A study of Mus musculus with 62 samples.

Results

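Gm36408, Gm38824 and Gm38954, which are annotated as long noncoding RNAs, are described here together with Ckm, its flanking genes Klc3 and Mark4, and Mad2l1, the nearest coding gene beyond Gm38824. These 7 symbols, of 29239 in the table of chow-fed mice, were picked by name because earlier work on that table found the 3 Gm transcripts in ChMKO muscle. The choice rested on ChMKO against F/F in gastrocnemius (GC) and soleus (SOL), and on SOL against GC within ChMKO. The members' values in those comparisons are therefore given as a description, with no test. Tests of the members are given for SOL against GC in F/F and for GC of other mice in another experiment, neither of which was used in the choice. In the comparisons used in the choice, limma results are given for other genes and as background.

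Ckm encodes the muscle form of creatine kinase, which passes phosphate between creatine phosphate and ATP and is among the most abundant transcripts of striated muscle. Its promoter is switched on as muscle cells differentiate, and copies of it are widely used to drive transgenes, Cre recombinase among them, in skeletal muscle and heart. Klc3 encodes a kinesin light chain, the cargo-binding part of a microtubule motor. Mark4 encodes a kinase that phosphorylates microtubule-associated proteins. Mad2l1 encodes a spindle checkpoint protein of dividing cells. No function is assumed for the 3 noncoding RNAs.

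The study removed ChREBP, the glucose-responsive transcription factor encoded by Mlxipl, from muscle. F/F mice carried loxP sites around a part of Mlxipl and no Cre, and ChMKO mice carried the same sites with Mck-cre, Cre under the muscle creatine kinase promoter. Every ChMKO mouse had both the transgene and the deletion, so that the effects of one and of the other cannot be told apart in these groups. On chow, GC (mostly fast fibres) and SOL (rich in slow fibres) were each measured in 5 F/F mice (numbered 57, 58, 69, 70 and 71) and 5 ChMKO mice (59, 60, 61, 72 and 74), which gave 20 libraries. GC and SOL libraries carry the same numbers, but the labels do not state that a shared number is 1 animal. The stress experiment measured GC of other F/F and ChMKO mice, 4 of each genotype in normoxia, in hypoxia (5500 m simulated altitude) and on a high-fructose diet (68% of calories from fructose), which gave 24 libraries. GC of C57BL/6J mice given AAV-CON or AAV-MLXIPL (5 of each), and C2C12 cells, a mouse myoblast line, at day 7 of differentiation with a control vector or with ChREBP overexpression (4 of each), were used for levels only.

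Chow libraries held 16390260 to 19808340 reads on genes and stress libraries 14473169 to 23460511. Mean Mlxipl was lower in ChMKO than in F/F, at 15.7 ± 2.53 against 24.9 ± 4.10 FPKM in chow GC and 38.4 ± 7.13 against 53.4 ± 7.51 FPKM in chow SOL (SD, n = 5). The groups did not overlap in GC but did in SOL, where ChMKO reached 46.1 and F/F went down to 43.8 FPKM, and limma called Mlxipl in neither muscle. In the stress libraries it was at 8.63, 8.21 and 9.26 FPKM in F/F and 3.30, 2.82 and 4.40 in ChMKO (means in normoxia, in hypoxia and on the high-fructose diet), lower over the 3 conditions by a log2 difference of -1.12 (limma adjusted p = 3.10e-12). The tissue labels matched their markers. Myh7, the slow myosin heavy chain, was at 1757 to 2267 FPKM in F/F SOL and 0.202 to 37.6 FPKM in F/F GC. The title of the F/F SOL library numbered 69 reads 59, a number that also belongs to ChMKO libraries, and its data column reads 69. In all of these bulk samples, fewer cells of a type and less RNA per cell cannot be told apart.

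The noncoding RNAs lay at 2 places in the mouse genome (GRCm38, as the positions of the chow table). Gm36408 spanned chr6:66148439-66272364 on the minus strand with a length of 358 bases. This and the lengths of the other 2 noncoding RNAs were inferred from the chow values. Gm38824 followed at chr6:66311011-66315679, also on the minus strand, with 848 bases. The gap between them was 38.6 kb, and within it, 140 bases past Gm36408, began Gm31520, another noncoding entry. Mad2l1 (chr6:66535226-66541109, plus strand) lay 219.5 kb beyond Gm38824.

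Gm38954 lay on chromosome 7 beside the gene whose promoter drives Cre. Klc3 occupied chr7:19394440-19404448 on the minus strand. Its end overlaps that of Ercc2 (chr7:19382039-19395692, plus strand), so reads there cannot be told apart without strand. Gm38954 began 1240 bases later, at chr7:19405689-19408309 on the plus strand, with an inferred length of 240 bases. Ckm began 2784 bases after it, at chr7:19411094-19421583 on the plus strand. Mark4 came 3518 bases further, at chr7:19425102-19458797 on the minus strand. Gm38954 and Ckm thus had the same strand and order, with Gm38954 upstream of the Ckm start. A930016O22Rik, an antisense entry, lay wholly inside Ckm at chr7:19417466-19421417, and reads of these overlapping genes cannot be told apart without strand.

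The GENCODE annotation (release M21) gave a further link between the genes. It lists a processed transcript, Ckm-202, whose exon 1 lies at chr7:19404776-19404873 and whose exon 2, chr7:19408033-19408105 on the plus strand, falls inside the span of Gm38954. The 73 bases of this exon are shown because they are the stretch annotated to both Ckm and the Gm38954 span.
Ckm-202 exon 2: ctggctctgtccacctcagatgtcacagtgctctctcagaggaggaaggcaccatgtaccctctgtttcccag

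The RefSeq promoter sequences (GRCm38.p6) covered 4 of the 7 members: Ckm, Gm36408, Klc3 and Mad2l1. The 250 bases before the starts of Ckm (chr7:19410844-19411093, plus strand) and of Gm36408 (chr6:66272365-66272614, minus strand) are shown, the former because it is the native copy of the type of promoter that drives Cre and the latter because it is the window of a noncoding RNA found with it. Capitals mark the E-box CANNTG, the letters bound by the myogenic factors of the MyoD family, and the TATA-like letters TATATAA, each searched on both strands. The letters TATATAA were chosen after the sequence was seen.
Ckm promoter: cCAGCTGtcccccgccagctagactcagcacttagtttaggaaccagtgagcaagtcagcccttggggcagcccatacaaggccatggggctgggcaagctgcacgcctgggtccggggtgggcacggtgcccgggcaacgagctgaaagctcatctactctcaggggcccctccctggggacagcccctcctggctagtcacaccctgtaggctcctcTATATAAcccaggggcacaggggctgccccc
Gm36408 promoter: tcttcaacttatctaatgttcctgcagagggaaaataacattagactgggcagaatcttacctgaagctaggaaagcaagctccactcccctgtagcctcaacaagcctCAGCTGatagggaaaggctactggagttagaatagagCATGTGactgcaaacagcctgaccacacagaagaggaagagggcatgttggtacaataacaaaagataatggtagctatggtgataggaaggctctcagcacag

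The Ckm window held 1 E-box, CAGCTG, at position -249 from the start, and TATATAA at position -31. The Gm36408 window held 2 E-boxes, CAGCTG at -141 and CATGTG at -104, and no TATATAA. Klc3 held 1 E-box and Mad2l1 none. Such letters are common: CANNTG occurred in 66.2% of all 32851 promoter windows of this length, CAGCTG in 13% and TATATAA in 3.04%. The carbohydrate response element to which ChREBP binds, searched as 2 E-boxes 5 bases apart, was in none of the 4 windows and in 0.639% of all.

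On chow, the 3 noncoding RNAs were listed with 0 reads in all 10 F/F libraries and with reads in all 10 ChMKO libraries. Of 30250 entries of the table, these 3 (0.00992%) had this pattern, and 0 had the reverse. Within single muscles, 8 entries in GC and 4 in SOL had it, the 3 included, and 1 and 5 had the reverse. As the 3 were chosen on these values, nothing about them is read from these counts. Levels are given below as FPKM, which is per length. No further correction was made for short transcripts, so levels of different genes compare only roughly. The floor for F/F was 3 reads over the 5 libraries of a muscle. Fold values set the pooled ChMKO level against this floor, without the spread between libraries. They describe the values used in the choice and are no test.

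Gm38824 was the most abundant of the 3. Its FPKM in ChMKO GC was 16.9, 15.7, 15.5, 10.02 and 12.3 in libraries 59, 60, 61, 72 and 74 (14.1 ± 2.83, from 148 to 245 reads). In the SOL libraries of the same numbers it was 10.2, 8.30, 9.92, 8.59 and 9.41 (9.28 ± 0.815, from 133 to 158 reads). The GC values were the higher, though the lowest of them, 10.02, lay below the highest in SOL. Against the F/F floors it was at least 335-fold higher in GC and at least 227-fold higher in SOL.

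Gm38954, upstream of Ckm, was present in GC, in the same order of libraries, at 10.9, 13.1, 7.98, 8.85 and 9.68 FPKM (10.1 ± 2.00, from 32 to 53 reads). In SOL it was at 2.88, 3.09, 2.61, 4.88 and 4.42 FPKM (3.57 ± 1.01, from 11 to 22 reads). Every GC value lay above every SOL value. The levels were at least 68.2-fold above the F/F floor in GC and at least 25-fold in SOL.

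Gm36408 was the lowest of the 3 in GC, at 4.24, 5.30, 4.35, 3.05 and 4.70 FPKM (4.33 ± 0.828, from 19 to 32 reads). In SOL it was at 2.41, 2.66, 3.81, 4.75 and 3.81 FPKM (3.49 ± 0.956, from 15 to 32 reads), so that here the muscles overlapped, and library 72 was the highest in SOL and the lowest in GC. The floors put it at least 43.5-fold higher in GC and at least 36.2-fold higher in SOL than in F/F. In SOL, Gm36408 and Gm38954 could not be ordered, since their 5 values interleaved, whereas Gm38824 stood above both in both muscles except that its lowest GC values, 10.02 and 12.3, fell within the GC range of Gm38954.

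**Figure D1:**
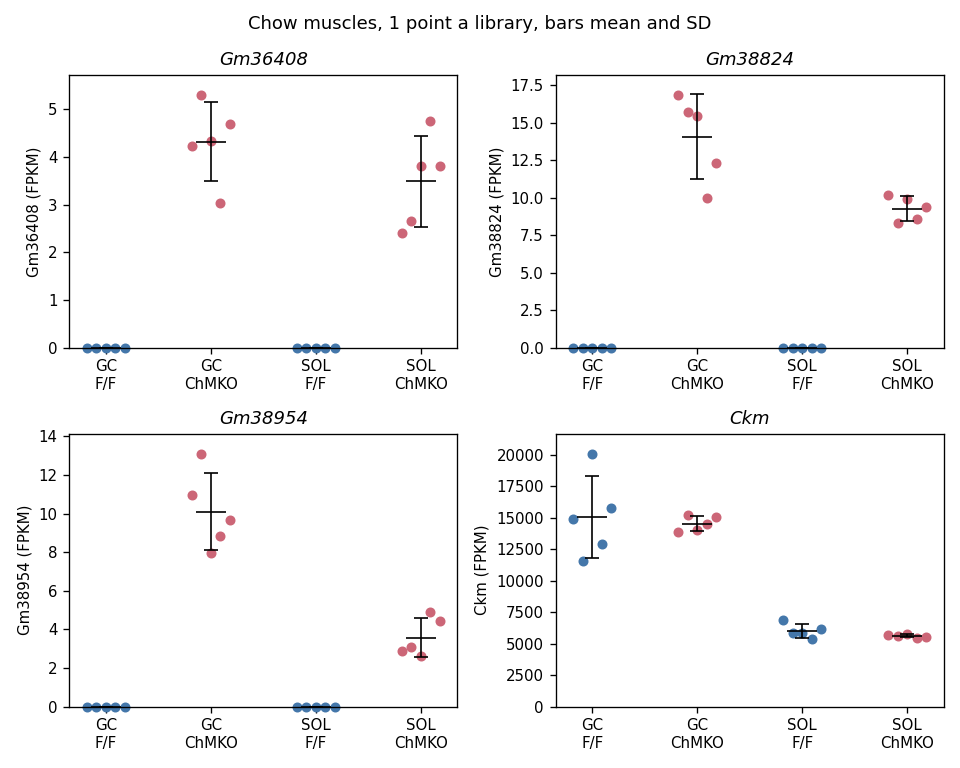
FPKM of Gm36408, Gm38824, Gm38954 and Ckm (vertical axes, each with its own scale) by muscle and genotype on chow; points are libraries and bars the mean ± SD of 5 mice. The 3 noncoding RNAs sit at 0 in every F/F library and above 0 in every ChMKO library, while Ckm overlaps between genotypes and is lower in SOL.

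Gm31520, between the 2 chromosome 6 members, gave 15, 22, 20, 9 and 11 reads in GC and 5, 7, 9, 4 and 0 reads in SOL of the ChMKO mice, against 0 reads in F/F except 1 read in SOL library 69. It was below the limit of 0.5 FPKM used for testing. The next entry past Gm38824, 2610300M13Rik, gave 2 reads in ChMKO GC library 60, 6 in GC library 72 and 1 in SOL library 60. Reads were thus counted in 3 adjacent entries, which lie in 167.2 kb from the first coordinate of Gm36408 to the last of Gm38824. They were nearly absent from the entry beyond. As values are per entry, where in this stretch the reads lay is not known.

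Ckm itself overlapped between the genotypes on chow. In GC, F/F mice 57, 58, 69, 70 and 71 had 14877, 11585, 20091, 12882 and 15806 FPKM (15048 ± 3268) and ChMKO mice 13915, 15231, 14011, 14474 and 15088 (14544 ± 603). All ChMKO values lay inside the F/F range, whose highest was mouse 69. The difference, ChMKO minus F/F, was -0.02 on the log2(FPKM + 1) scale. In SOL, F/F mice had 6915, 5859, 5836, 5378 and 6163 FPKM (6030 ± 569) and ChMKO mice 5720, 5585, 5749, 5464 and 5552 (5614 ± 119), a difference of -0.10. The antisense entry A930016O22Rik moved with Ckm, at 3888 against 3643 FPKM in GC and 1718 against 1501 FPKM in SOL (F/F against ChMKO means).

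The flanking coding genes overlapped between the genotypes too. Klc3 was at 2.37 ± 0.522 FPKM in F/F and 2.06 ± 0.254 in ChMKO GC, and at 2.45 ± 0.550 and 2.07 ± 0.501 in SOL (log2 differences of -0.13 and -0.17). Mark4 was at 7.01 ± 0.5258 against 7.92 ± 1.20 FPKM in GC, where ChMKO library 72 had the highest value of 9.76, and at 8.40 ± 0.380 against 8.54 ± 0.641 in SOL (0.15 and 0.02). Mad2l1 was near the limit of detection, at 0.382 ± 0.0720 against 0.332 ± 0.124 FPKM in GC (6 to 18 reads a library) and 0.560 ± 0.181 against 0.594 ± 0.144 in SOL (n = 5 in each group). The groups overlapped for each of these 3 genes in both muscles.

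The wider neighbourhoods were read the same way. Within 500 kb of the start of a member lay 11 other entries on chromosome 6, of which 4 reached a mean of 0.5 FPKM, and 61 on chromosome 7, of which 40 in GC and 41 in SOL did. As background, limma called 3 of 12724 genes in GC (0.0236%) and 3 of 13348 in SOL (0.0225%) at an adjusted p under 0.05. The members were chosen on these comparisons, and nothing about them is read from these counts. Groups did not overlap for 0.857% of all genes in GC and 2.05% in SOL. Of the neighbours, none was called by limma or by limma-voom on either chromosome. On chromosome 7, 1 neighbour in GC and 5 in SOL had an unadjusted p under 0.05, shares to be set beside 4.63% and 9.74% of all genes, and on chromosome 6 none had in either muscle. The groups did not overlap for Trappc6a in SOL, a subunit of a vesicle-tethering complex, at 5.42 ± 0.453 against 4.19 ± 0.450 FPKM (a log2 difference of -0.31), and for no other of the neighbours that reached 0.5 FPKM. Gm31520, below that level, is given above, with GC groups that did not overlap. Neighbours' log2 differences ran from -0.21 to 0.60 in GC and -0.58 to 0.31 in SOL on chromosome 7, where Fosb, an immediate-early gene that varied widely within groups, was the highest in GC and the lowest in SOL, and from -0.16 to 0.02 and -0.27 to -0.05 on chromosome 6. Their medians were 0.04 and -0.12 on chromosome 7 and -0.06 and -0.15 on chromosome 6, against 0.01 and -0.02 for all genes.

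**Figure D2:**
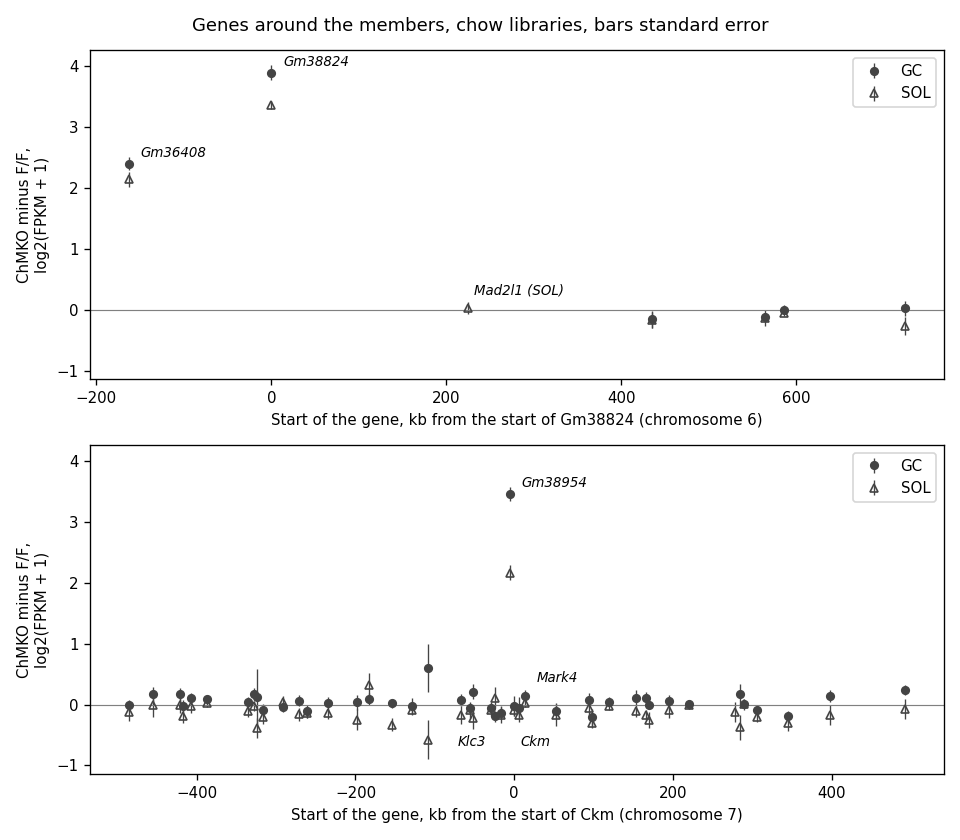
Difference between ChMKO and F/F on the log2(FPKM + 1) scale (vertical axis; bars are standard errors of limma, 5 against 5 mice) for genes averaging 0.5 FPKM or more, by the distance in kb of each gene's first coordinate from that of Gm38824 on chromosome 6 (top) and of Ckm on chromosome 7 (bottom); filled circles are GC and open triangles SOL. Gm36408, Gm38824 and Gm38954 lie between 2.14 and 3.89, and the neighbours between -0.58 and 0.60.

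Among the nearest expressed genes around the noncoding RNAs on chromosome 6 were Smarcad1 (a chromatin remodeller) on the Gm36408 side and Gm4045 and Gm9794 on the Gm38824 side. Smarcad1 was at 0.634 against 0.528 FPKM in GC and 0.720 against 0.768 in SOL (F/F against ChMKO means, n = 5). Gm9794, the most abundant of these 3, was at 66.6 ± 3.74 against 61.1 ± 4.91 FPKM in GC and 99.0 ± 16.5 against 89.5 ± 11.1 in SOL. The log2 differences of these 3 genes ran from -0.16 to 0.04.

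Whether the noncoding RNAs follow Ckm was read from the muscles, since Ckm has a much lower level in SOL than in GC. In F/F mice, where this comparison played no part in the choice of members, Ckm fell by 1.3 on the log2 scale from GC to SOL (SE 0.176, limma adjusted p = 0.000153, n = 5 and 5). Mark4 was higher in SOL by 0.23 (SE 0.0689, adjusted p = 0.0158), but by 0.01 (adjusted p = 0.960) once libraries were rescaled to a common median ratio. Klc3 differed by 0.03 (95% interval -0.25 to 0.31, adjusted p = 0.850). In this comparison 50.4% of 13235 genes were called, 37.9% higher and 12.5% lower in SOL, and the median of all genes was 0.18 higher in SOL.

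Genes of the creatine system did not all go the way of Ckm. Of 7 listed, 6 were tested in F/F, of which 3 rose from GC to SOL and 2 fell. Ckb, the brain-type creatine kinase, rose by 1.13, Ckmt2, the mitochondrial creatine kinase of striated muscle, by 1.20, and the creatine transporter Slc6a8 by 0.83. Gamt, the last enzyme of creatine synthesis, fell by 1.18 along with Ckm, and Gatm, the first, was at -0.06 and not called. The list's median was 0.39, against 0.18 for all genes. These 5 calls held after rescaling, at 0.91 for Ckb, 0.94 for Ckmt2, 0.58 for Slc6a8, -1.39 for Gamt and -1.55 for Ckm.

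The other lists lay near the background of 37.9% of genes called higher, with medians of 0.24 (kinesin chains), 0.19 (MARK kinases and their activator Stk11) and 0.21 (spindle checkpoint) near the 0.18 of all genes, and nothing is read from their counts. Of the kinesin chains 5 of 7 were tested and 2 called higher in SOL, Klc1 by 0.55 and Klc4 by 0.58, at 0.32 and 0.36 and still called after rescaling. All 5 MARK genes were tested and 2 called, Mark1 by 1.58 (adjusted p = 1.26e-06, and 1.43 after rescaling) and Mark4, whose call was lost on rescaling. Of 9 spindle checkpoint genes 4 were tested and 2 called, Mad1l1 by 0.32 and Mad2l1bp by 0.61, both lost on rescaling (adjusted p = 0.148 and 0.0827). Rescaling also gave calls below 0 for Klc2 (-0.34), Mark3 (-0.26) and Mad2l2 (-0.37).

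Markers of other cell types moved between the muscles of F/F as well. Both endothelial markers (Cdh5 and Pecam1) and both red blood cell markers (Hba-a1 and Hbb-bs) were called higher in SOL, where 37.9% of all genes were, with summed levels of 69.8 to 120.5 FPKM in SOL against 23.2 to 46.6 in GC and 142.3 to 309.5 against 54.3 to 106.4. These 4 calls held after rescaling and by limma-voom. Of 3 adipocyte markers 2 were called higher, Adipoq and Cfd, of which Adipoq was lost on rescaling (adjusted p = 0.0795) and was not called by limma-voom, with sums of 30.4 to 170.4 against 6.80 to 75.2. Myofibre markers, which include the myosins that distinguish the muscles, summed to 22710 to 27000 FPKM in SOL and 28590 to 35800 in GC. None of the Schwann cell (2), fibroblast (2), leukocyte (1) and liver (1) markers tested was called by limma, or had an unadjusted p under 0.05. The part of these cell types in the differences between muscles was not tested.

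The ratio of SOL to GC was then taken between ChMKO libraries of the same number, as a description. For Ckm it was 0.387 ± 0.0223 (0.367 to 0.411), against 0.414 ± 0.0819 (0.290 to 0.506) in F/F. Gm38954 had 0.263, 0.236, 0.327, 0.551 and 0.457 for numbers 59, 60, 61, 72 and 74 (0.367 ± 0.134). Its mean was close to that of Ckm, but its spread was far wider, with numbers 59, 60 and 61 below the Ckm ratio of the same libraries and 72 and 74 above it. Its SOL values rest on 11 to 22 reads a library.

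The chromosome 6 transcripts fell less between the muscles than Ckm did. Gm38824 had ratios of 0.604, 0.527, 0.642, 0.858 and 0.763 (0.679 ± 0.131), and all 5 lay above every Ckm ratio. Gm36408 had 0.569, 0.502, 0.877, 1.56 and 0.810 (0.864 ± 0.420), again all above every Ckm ratio, with number 72 above 1. This order did not rest on the numbers: whichever SOL library was set against whichever GC library, the ratio was at least 0.492 for Gm38824 and 0.455 for Gm36408, and at most 0.413 for Ckm, while Gm38954 ran from 0.199 to 0.611. For the flanking genes the ratio in ChMKO was 1.04 ± 0.355 (Klc3) and 1.10 ± 0.220 (Mark4), and for Mad2l1, from few reads, 2.07 ± 1.23. In all 3 noncoding RNAs the highest ratio was that of number 72.

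The same can be read per 1000 FPKM of Ckm. Gm38954 was at 0.694 ± 0.124 in GC and 0.639 ± 0.193 in SOL (n = 5), a difference smaller than the spread between libraries. Gm38824 was at 0.971 ± 0.213 in GC and 1.65 ± 0.119 in SOL, and Gm36408 at 0.297 ± 0.0514 and 0.623 ± 0.179. On the log2(FPKM + 1) scale the difference, SOL minus GC in ChMKO, was -1.37 for Ckm, -1.29 for Gm38954, -0.53 for Gm38824 and -0.26 for Gm36408, beside a median of 0.15 over all genes and 57.9% of genes called.

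**Figure D3:**
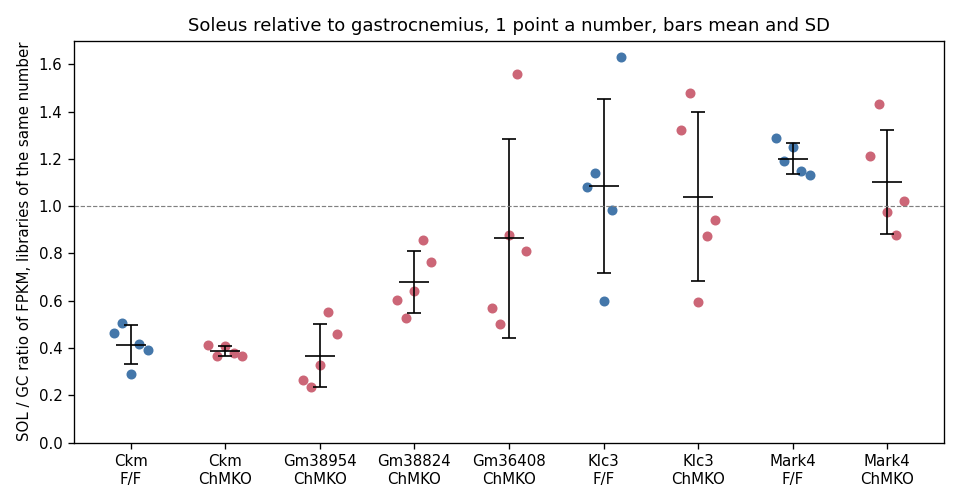
Ratio of the SOL to the GC level (FPKM) for each pair of chow libraries of the same number (vertical axis) for Ckm, Klc3 and Mark4 in F/F and ChMKO and for the 3 noncoding RNAs in ChMKO; points are numbers, bars the mean ± SD of 5 and the dashed line a ratio of 1. Ckm and Gm38954 have means of 0.387 and 0.367 in ChMKO, and Gm38824 and Gm36408 of 0.679 and 0.864.

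The 3 noncoding RNAs also differed among themselves in FPKM, which compares transcripts this short only roughly. Gm38824 exceeded Gm36408 by a ratio of 3.28 ± 0.523 in GC and 2.84 ± 0.901 in SOL, a difference smaller than the spread between libraries. Gm38824 exceeded Gm38954 by 1.42 ± 0.329 in GC and 2.78 ± 0.880 in SOL. Gm38954 exceeded Gm36408 by 2.37 ± 0.425 in GC, whereas in SOL they were near parity, at 1.04 ± 0.212.

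Genes with a pattern most like that of the 3 were ranked by Pearson's r of log2(FPKM + 1) with their mean over the 20 chow libraries. As the 3 are at 0 in all F/F libraries, this r mostly follows the step between genotypes. The highest was Dysf (r = 0.907), which encodes dysferlin, a protein of muscle membrane repair, followed by Gm31520 (0.839), 1700030C12Rik (0.785), Ifi205 (0.774) and P4ha2 (0.772), a subunit of collagen prolyl hydroxylase. Ckm had r = 0.0736, Mark4 0.192, Mad2l1 -0.121 and Klc3 -0.405. Dysf lies on chromosome 6 as well, at chr6:84008314-84211060 on the plus strand, 17.7 Mb beyond Gm38824. On chow it was at 10.9 ± 0.531 in F/F and 15.8 ± 1.46 FPKM in ChMKO GC, and at 9.92 ± 0.983 and 14.0 ± 1.01 in SOL, with no overlap of the 10 F/F and the 10 ChMKO libraries (n = 5 in each group).

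Because Dysf was chosen on the chow libraries, it was tested in the stress libraries, from other mice. On the high-fructose diet its FPKM was 8.73, 8.0, 8.54 and 8.09 in F/F and 11.3, 11.3, 11.1 and 10.95 in ChMKO, without overlap, as was so for 4.47% of all genes. It rose by 0.38 on the log2 scale (SE 0.0434, limma adjusted p = 0.0343), being higher in 4 of 4 ChMKO mice. It was 1 of 2 genes called of 10514 (0.019%), and the adjusted p was 0.0721 to 0.207 when any single library was left out. In normoxia it was at 9.42, 10.1, 7.40 and 8.03 FPKM in F/F and 9.79, 14.5, 15.1 and 14.8 in ChMKO (0.57, adjusted p = 0.418), where mouse 370 alone fell inside the F/F range. In hypoxia the groups overlapped (0.48, adjusted p = 0.532). Over the 3 conditions the difference was 0.48 (SE 0.0849, adjusted p = 0.0344, 3 of 10717 genes called, 0.028%). The adjusted p ran from 0.00168 to 0.0960 when single libraries were left out, and the difference was 0.40 (adjusted p = 0.610) with the side of the first principal component, described next, as a further term.

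The stress libraries fell into 2 sets that the labels do not explain. The first principal component held 61.56% of the variance over 10717 genes and separated 12 libraries, all 8 ChMKO in normoxia and hypoxia with 2 of 4 F/F in each of those conditions, from 12 others, the remaining F/F with all 8 on the high-fructose diet. Summed myofibre markers ran from 29610 to 42780 FPKM on the first side and 24390 to 28460 on the second, endothelial markers from 43.6 to 77.3 and 30.6 to 36.3, and fibroblast markers from 33.6 to 159.6 and 12.5 to 31.8. The levels of adipocyte, leukocyte, red blood cell, Schwann cell, dividing cell and liver markers overlapped between the sides. The part of these marker differences in the results that follow was not tested. The side was derived from the same expression values and goes partly with genotype. Fits by side, or with side as a term, therefore cannot separate side from genotype, and no conclusion is drawn from them. The 3 noncoding RNAs are not analysed here in the stress, AAV and C2C12 experiments.

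Ckm in normoxia was at 3779 and 3602 FPKM in the F/F mice on the first side, at 2985 and 2702 in those on the second side, and at 4328, 4070, 4246 and 4135 in ChMKO. The groups did not overlap, as was so for 4.96% of all genes, but the difference of 0.37 (SE 0.129) had an adjusted p of 0.418, with 0.00922% of 10847 genes called. Among libraries of the first side alone it was 0.18. In hypoxia the F/F mice had 4442 and 4749 FPKM on the first side and 2658 and 3162 on the second, and ChMKO mice 4481, 4301, 4554 and 3869, so that 2 F/F libraries lay below the ChMKO range, 1 inside it and 1 above. This difference was 0.23 (adjusted p = 0.587, 0.00941% of 10627 genes called) over all libraries and -0.10 on the first side. On the high-fructose diet the values were 2423, 2451, 2446 and 2685 in F/F and 2517, 2599, 2604 and 2833 in ChMKO, a difference of 0.08 (adjusted p = 0.840).

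Over the 3 conditions Ckm did not pass the test for genotype (0.23, SE 0.0822, adjusted p = 0.173), and with the side as a term the difference was 0.06 (adjusted p = 1.00). Mark4 was at 3.80 to 4.58 FPKM in F/F and 4.06 to 5.22 in ChMKO in normoxia, 3.23 to 4.52 and 3.85 to 5.77 in hypoxia, and 3.17 to 4.01 and 3.26 to 3.81 on the high-fructose diet. Its genotype differences were 0.11, 0.24 and 0.01, and 0.12 over the 3 conditions (adjusted p = 0.559, 0.532, 0.994 and 0.239). Klc3 had at most 3 reads and Mad2l1 15 to 55 reads in any stress library, below the limit for testing. Of the creatine, kinesin, MARK and spindle lists, 6, 4, 5 and 4 genes were tested over the 3 conditions. Limma called 0 of these genes, as did limma-voom, while 2, 2, 1 and 1 had an unadjusted p under 0.05, as had 25% of all genes. Medians of the lists were 0.11, -0.01, 0.09 and 0.13, against 0.04 for all genes. Of the neighbours, 2 on chromosome 6 and 32 on chromosome 7 were tested, and none was called by limma or limma-voom. Of these, 1 and 8 had an unadjusted p under 0.05, where 25% of all genes had.

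Within ChMKO, hypoxia left Ckm at 0.03 from normoxia (adjusted p = 0.916, 0.89% of 10675 genes called). On the high-fructose diet Ckm was lower than in normoxia by a log2 difference of -0.67 (adjusted p = 1.19e-05), in a comparison where 64% of 10732 genes were called, 19.4% higher and 44.6% lower, and the median of all genes was -0.17. After rescaling it was -0.48 (adjusted p = 0.000139). Mark4 differed by -0.23 (adjusted p = 0.0243), and by -0.08 (adjusted p = 0.347) after rescaling, while without the ChMKO library on the diet with the lowest level, 3.26 FPKM, the adjusted p was 0.0661. These 2 groups lay on opposite sides of the first component, so that diet and side cannot be told apart.

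**Figure D4:**
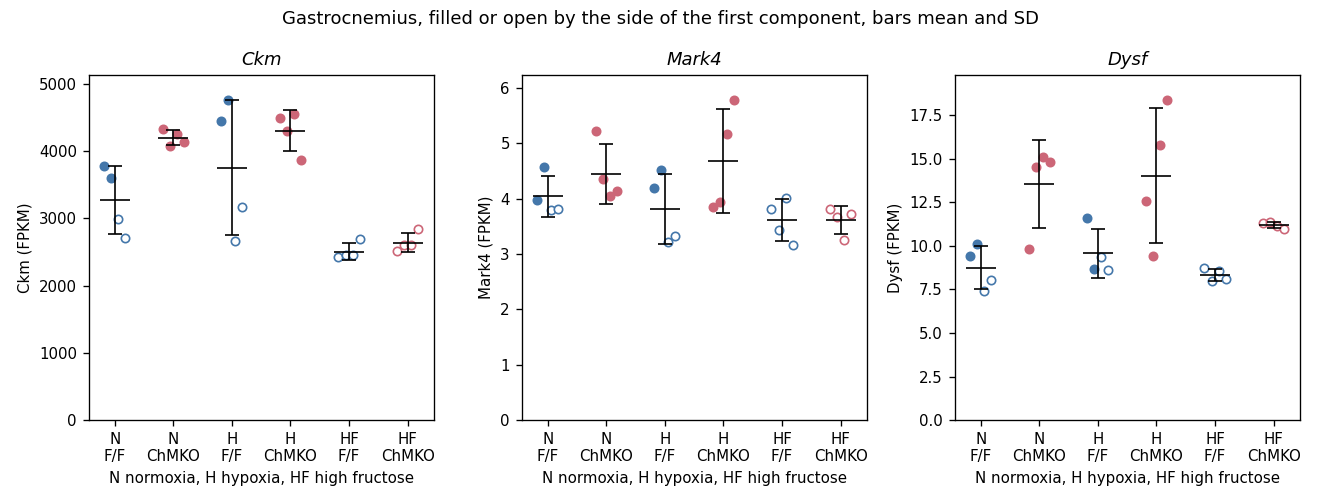
FPKM of Ckm, Mark4 and Dysf (vertical axes) of GC, by genotype, in normoxia (N), hypoxia (H) and on the high-fructose diet (HF); points are libraries, filled on the first and open on the second side of the first principal component, and bars the mean ± SD of 4. Ckm runs from 3602 to 4749 in filled and 2423 to 3162 in open points.

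Raising ChREBP in place of deleting it gave levels of the coding members only. In GC with AAV-MLXIPL, Mlxipl was at 83.5 FPKM against 11.3 with AAV-CON. Ckm was at 12383 ± 779 against 12688 ± 730 FPKM and Mark4 at 4.2 ± 0.255 against 4.42 ± 0.219 (SD, n = 5), with overlapping groups. Mad2l1 was at 0.781 ± 0.258 against 0.835 ± 0.365, and Klc3 at 0 to 0.067 FPKM in the 10 libraries.

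In C2C12 cells, which had been dividing before they differentiated, Mad2l1 was at 15.8, 15.0, 15.1 and 15.6 FPKM with the control vector and 20.2, 20.7, 21.6 and 21.4 with ChREBP overexpression. Ckm was at 12.5, 11.01, 10.1 and 11.4 against 16.0, 16.1, 13.5 and 14.5 FPKM. Both were higher with ChREBP without overlap. Groups did not overlap, in either direction, for 31.3% of 11971 genes, and no test was run. Mark4 (10.6 ± 1.15 against 10.6 ± 0.395, n = 4) and Klc3 (2.36 to 3.06 against 3.03 to 3.64) overlapped. Levels are compared within a table only, as each was made with its own gene models.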

How the data were processed

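RNA was sequenced in bulk. Per the labels and the study's methods, the authors aligned reads with HISAT2 and deposited values as FPKM, fragments scaled to transcript length and library total, 1 table per experiment; the submitters' processing notes name fastp 0.18.0, HISAT2 2.1.0, StringTie 1.3.1, Bowtie2 2.2.8, RSEM and GRCm39, whereas chow positions follow GRCm38. The study called genes with a count model; the deposited tables hold no counts, so its tests were not repeated. Low FPKM values were whole multiples of 1 read, so whole reads were recovered: 99.986% of chow and 100% of stress values above 0 came out whole (tolerance 0.01), in every library for 30247 of 30250 chow entries. Lengths were listed for the stress experiment but not for chow. For each chow entry the shortest length giving whole reads in every library was taken. Wholeness on chow thus follows largely from that choice, and chow reads rest on the inferred lengths.

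The members and lists were chosen with earlier results of these data known. Named besides the members were Mlxipl, the nearest expressed and listed genes (some are not reported here), all genes within 500 kb, the 5 genes most like the 3 noncoding RNAs, and 4 lists. Two-sided tests used limma 3.58.1 (R 4.3.3; trend) on log2(FPKM + 1) for genes averaging 0.5 FPKM or more, with Benjamini-Hochberg adjustment over all genes tested and calls at an adjusted p under 0.05. Fold changes on this scale understate the change of low genes. Alternatives were a pseudocount of 0.1, no filter, a mean of at least 5 FPKM, rescaling by the median ratio, limma-voom on recovered reads, each library left out, and the replicate block. Tested on simulated data, the fit recovered 95% of 100 genes changed by 1.5 (log2) for SOL against GC in F/F, with 7 unchanged genes called (13224 genes), and 89% for genotype in normoxia, with 14 (10827 genes). The labels do not say that libraries of a group are separate animals or cultures, though the study's methods report independent biological replicates. The p-values measure the spread between these samples. Floors cover counting error only. Values of the AAV and C2C12 tables were averaged without tests. Sequences came from RefSeq (GRCm38.p6) and the GENCODE M21 annotation on GRCm38.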

Additional observations from a re-analysis of the deposited data

Results flagged for a closer look

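In 6 of 76 groups of 4 or 5 libraries, 1 library stood apart from the rest of its group by the gap test of Dixon at 95%, which chance alone gives in about 1 of 20 groups. Ckm in F/F on the high-fructose diet was at 2685 FPKM in mouse 310, against 2423 to 2451 in the other 3. Mad2l1 in ChMKO in normoxia was at 0.190 FPKM in mouse 370, against 0.121 to 0.131. In the same mouse Dysf was at 9.79 FPKM, against 14.5 to 15.1 in the other 3. Klc3 was at 0.0597 FPKM in F/F mouse 360 in hypoxia (0.0186 to 0.0243 in the others), and on the high-fructose diet at 0.0161 in 1 F/F mouse and at 0.0385 in 1 ChMKO mouse (0 in the others); these rest on 1 to 3 reads.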

How the results depend on the processing

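Of 840 alternative values of 54 results, 746 were graded the same, 49 moved, 31 weaker, 1 stronger and 13 reversed. For tested genes, the same meant an unchanged direction and side of the threshold. For counts of calls it meant a count of similar size. In the comparisons used in the choice, and for Dysf on chow, it meant a shift below the spread within groups, whatever the sign. There, leaving out single libraries gave -0.11 to 0.087 for Ckm in chow GC, -0.0079 to 0.053 for Mark4 and -0.023 to 0.084 for Mad2l1 in chow SOL. Reversals were of small values: Ckm in hypoxia was -0.10 on the first side of the component, Klc3 in F/F (SOL minus GC) -0.15 after rescaling, and leaving out single libraries gave -0.042 to 0.047 for Mark4 on the high-fructose diet, -0.036 to 0.12 for Mark4 and -0.11 to 0.19 for Dysf between hypoxia and normoxia, and -0.055 to 0.12 for Klc3. Calls over the 3 conditions were 5 by limma-voom (3 in the main analysis). Hypoxia against normoxia in ChMKO had 95 calls, 6 without a filter and 166 after rescaling. With a mean of at least 5 FPKM fewer genes were tested, with 3357 calls for diet, 3319 and 3942 for SOL against GC in F/F and ChMKO, and 0 (563 at an unadjusted p under 0.05) for chow SOL. Chow GC had 5 calls with a pseudocount of 0.1 and 5 without a filter. Leaving out single libraries gave 0 to 4 calls in normoxia, 1 on the diet, 2 to 9 over the 3 conditions, 10 to 129 for hypoxia, 3 to 5 in chow GC and 3 to 6 in chow SOL. The cause of these shifts was not tested. GC and SOL libraries share only a number: deviations of those with the same number correlated at -0.024 to 0.323 in F/F (own number best in 4 of 5) and 0.019 to 0.05 in ChMKO (1 of 5), a hint from the data and not the design. With the replicate block 6467 genes were called in F/F (6673 without) and 7266 in ChMKO (7575). The adjusted p was 0.00123 for Ckm and 0.0326 for Mark4 in F/F, and 0.0579 for Mark4 without number 69. The fits by side, those with side as a term and limma-voom on chow were chosen after seeing the data. A correlation of the noncoding RNAs over stress libraries was not run. SOL levels of Gm38954 and Gm36408 rest on 11 to 22 and 15 to 32 reads a library.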
